A study of Mus musculus with 6 samples.

Results

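The genes described here are 10 genes of antigen presentation by the major histocompatibility complex (MHC), taken by symbol from a fixed list, and all 10 were among the 14228 genes of the table. 5 belong to the class II pathway (H2-Aa, H2-Ab1, H2-Eb1, Cd74 and H2-DMa) and 5 to the class I pathway (H2-K1, H2-D1, B2m, Tap1 and Psmb8). All 10 passed the filter on low counts. They were measured in stomach fibroblasts of triple-transgenic iLgr5;GLI2A mice, a gastric cancer model in which active GLI2 is driven in Lgr5-expressing cells, sacrificed after treatment that began at 8 weeks of age. Cancer-associated fibroblasts (CAF, 3 libraries) came from mice given tamoxifen by gavage for 5 days and doxycycline chow for 3 weeks, and doxycycline water on the first 3 of those days. Normal fibroblasts (3 libraries) came from mice of the same strain given corn oil and no doxycycline. CAF mice thus differed from controls in cancer and in both drugs, and these cannot be told apart. CAF libraries 1, 2 and 3 held cells of 1, 2 and 2 mice, and normal libraries 1, 2 and 3 held cells of 1, 1 and 2 mice. The cells were sorted as live and podoplanin-positive, after cells with CD31 (endothelial), CD45 (immune) or EpCAM (epithelial) had been gated out. RNA was counted at transcript 3′ ends by MARS-seq, and levels are given as CPM, counts relative to a scaled library total.

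MHC class I molecules sit on nearly all nucleated cells. They carry peptides that the proteasome cuts in the cytosol and that the TAP transporter moves into the endoplasmic reticulum, and they show them to CD8 T cells. Class II molecules are made mainly by dendritic cells, macrophages, B cells and thymic epithelium, carry peptides from the endosome and show them to CD4 T cells. Interferon gamma raises genes of both pathways in many cell types, and fibroblasts with class II RNA have been described in tumours as antigen-presenting CAF.

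The class I genes H2-K1 and H2-D1 lay lower in every CAF library than in any normal library, by about the same fold, without passing the test across all genes. Of all genes tested, 9.35% lay lower in this way and 10.6% lay higher in every CAF library. The class II genes overlapped between the groups, and 4 of the 5 were highest among normal libraries in library 2. None of the 10 genes was called higher or lower in the quasi-likelihood test of edgeR (Benjamini-Hochberg adjustment, threshold 0.05). Over all 10148 genes tested, 1.1% were called, 0.897% as higher in CAF and 0.207% as lower. Those calls rest on few libraries: the 112 calls became 49, 4 and 29 without CAF libraries 1, 2 and 3, and 0, 6 and 1193 without normal libraries 1, 2 and 3. At an unadjusted p under 0.05, 1 of the 10 was lower (H2-K1) and 0 were higher, where 7.97% of all genes tested were lower and 7.37% higher. By DESeq2 and by limma-voom, 0 of the 10 genes were called as well, where 935 and 65 genes were called over all genes. None of the 10 had, in the authors' deposited table, an adjusted p under 0.05, as 2.76% of its genes had as higher and 3.61% as lower in CAF.

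The total count ranged from 644522 to 6422568 in the CAF libraries and from 768420 to 3259644 in the normal libraries. Gastric gland markers, 17 genes such as the zymogen Pgc, took 0.588% to 0.851% of the counts in the CAF libraries, against 19.8%, 16.1% and 4.11% in normal libraries 1, 2 and 3. Fibroblast markers took 0.940%, 2.83% and 3.47% in CAF 1, 2 and 3, against 0.380%, 0.879% and 1.37% in normal 1, 2 and 3. Pdpn, which encodes the podoplanin of the sort, was at 27.8, 121 and 119 CPM in CAF and at 5.71, 34.2 and 18.8 CPM in normal libraries, and Col1a1, a collagen of fibroblasts, at 329 to 1591 CPM in CAF and at 138 to 368 CPM in normal libraries. Epcam RNA, of a surface protein that the sort removed, was present at 114 to 233 CPM in CAF and 13.8 to 150 CPM in normal libraries. Of 6 general epithelial markers, Epcam among them, 2 had a positive fold change and 4 a negative one (median log2 fold change -0.59). Elf3 was at 44.2 to 68.8 CPM in CAF and 63.8 to 439 CPM in normal libraries, and Cldn7 at 83.0 to 174 and 2.50 to 22.8 CPM. Squamous forestomach markers, 6 of 7, summed to 52.7, 65.4 and 79.8 CPM in CAF and 1451, 2139 and 102.6 CPM in normal libraries. The glial marker S100b was at 103.9, 65.4 and 37.3 CPM in CAF and 0.816, 2.53 and 3.75 CPM in normal libraries (33.9-fold higher, edgeR adjusted p = 0.0247). The part of these cells in the MHC levels was not tested. In bulk RNA of this kind, fewer cells of a type and less RNA per cell cannot be told apart.

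The promoters of the class I and class II genes are shown because H2-K1 and H2-D1, the genes whose groups did not overlap, have nearly the same one. The sequences are from RefSeq (GRCm38.p6), run from 250 bases before to 50 bases after the gene's start, 5′ to 3′ on the gene's strand, and 8 of the 10 genes matched the table by symbol. Capitals mark 3 motifs searched on both strands after these promoters had been read: GGGGATTCCCC, the kappa B core of the class I enhancer A, AGTTTCACTTC, the class I interferon response element, and CCAAT, the box bound by NF-Y, which reads ATTGG on the other strand. The first and the second were copied from the H2-K1 promoter, so their presence there is by construction.

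H2-K1 (chr17:34000298-34000597, minus strand): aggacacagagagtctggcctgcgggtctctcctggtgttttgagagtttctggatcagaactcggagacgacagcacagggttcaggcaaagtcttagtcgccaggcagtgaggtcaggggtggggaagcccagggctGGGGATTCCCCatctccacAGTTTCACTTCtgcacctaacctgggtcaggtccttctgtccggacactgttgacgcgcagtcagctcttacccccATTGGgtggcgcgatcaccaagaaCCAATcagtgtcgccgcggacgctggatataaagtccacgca

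H2-D1 (chr17:35262844-35263143, plus strand): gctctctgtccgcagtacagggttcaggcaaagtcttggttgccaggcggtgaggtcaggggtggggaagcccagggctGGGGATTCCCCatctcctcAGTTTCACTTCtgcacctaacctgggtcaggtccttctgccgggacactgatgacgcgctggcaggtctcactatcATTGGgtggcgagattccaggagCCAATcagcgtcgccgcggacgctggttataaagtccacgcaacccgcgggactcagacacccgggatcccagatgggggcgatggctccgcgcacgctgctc

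B2m (chr2:122147437-122147736, plus strand): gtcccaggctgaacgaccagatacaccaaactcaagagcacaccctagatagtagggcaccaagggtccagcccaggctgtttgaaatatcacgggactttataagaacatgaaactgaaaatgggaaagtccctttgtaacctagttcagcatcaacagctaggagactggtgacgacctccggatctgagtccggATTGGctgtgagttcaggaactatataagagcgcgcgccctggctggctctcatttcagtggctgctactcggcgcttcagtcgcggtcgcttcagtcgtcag

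Tap1 (chr17:34187306-34187605, plus strand): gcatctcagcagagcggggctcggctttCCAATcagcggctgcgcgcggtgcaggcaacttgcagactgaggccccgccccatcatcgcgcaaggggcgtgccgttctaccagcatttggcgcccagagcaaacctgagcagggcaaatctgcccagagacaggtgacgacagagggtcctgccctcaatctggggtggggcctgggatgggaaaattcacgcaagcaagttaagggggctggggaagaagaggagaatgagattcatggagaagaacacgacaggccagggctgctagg

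H2-Aa (chr17:34287774-34288073, minus strand): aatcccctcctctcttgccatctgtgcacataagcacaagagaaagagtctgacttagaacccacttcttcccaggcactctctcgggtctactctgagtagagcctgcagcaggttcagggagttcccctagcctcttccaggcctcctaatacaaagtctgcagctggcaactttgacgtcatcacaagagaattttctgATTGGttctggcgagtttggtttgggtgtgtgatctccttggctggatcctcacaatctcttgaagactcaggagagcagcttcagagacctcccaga

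H2-Eb1 (chr17:34305617-34305916, plus strand): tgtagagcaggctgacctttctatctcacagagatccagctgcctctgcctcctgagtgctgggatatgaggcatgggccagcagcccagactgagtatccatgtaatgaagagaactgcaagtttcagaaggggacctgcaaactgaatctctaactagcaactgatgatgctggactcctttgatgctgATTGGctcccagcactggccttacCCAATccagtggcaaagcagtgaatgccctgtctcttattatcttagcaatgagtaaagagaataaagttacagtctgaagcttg

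The windows of H2-K1 and H2-D1 aligned over 228 columns with 206 identical bases (90.4%), and each held both long motifs. GGGGATTCCCC was found in 0.0304% of 32851 promoter windows, and the 9 genes with it included 3 class I genes, H2-K1, H2-D1 and H2-Q6. AGTTTCACTTC was found in 0.0517% of windows, and 6 of its 16 genes were class I genes, H2-Q4, H2-Q7 and H2-Q10 among them. CCAAT was found in 37.4% of windows. It lay 59 and 35 bases before the start of H2-Eb1, 48 before that of H2-Aa, 53 before that of B2m, 222 before that of Tap1 and 76 and 53 before that of H2-D1. H2-K1 had one box 16 bases before its start and one 8 bases after it. Its long motifs lay 111 and 92 bases before its start, and those of H2-D1 171 and 152 bases before. By GENCODE, H2-D1 starts at 35262730, before its window begins. Distances in these 2 genes thus depend on where each start is annotated, and are not compared. The windows of H2-DMa and Psmb8, not shown, held none of the 3 motifs, so that 6 of the 8 windows held CCAAT. A match is only a run of letters, and no match says nothing about binding of a factor. The window of Tap1 overlaps that of Psmb9, which runs the other way, by 275 bases, and the genes themselves start on opposite strands.

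By GENCODE M21 (GRCm38, the same assembly as mm10), 8 of the 10 genes lie on chromosome 17. H2-K1 spans 33996017 to 34000347, H2-DMa 34119541 to 34139101, Tap1 34187553 to 34197225, Psmb8 34197721 to 34201454, H2-Ab1 34257689 to 34269419, H2-Aa 34282744 to 34287823, H2-Eb1 34305867 to 34316674 and H2-D1 35262730 to 35267499. B2m lies on chromosome 2 (122147686 to 122153083) and Cd74 on chromosome 18 (60803848 to 60812652). Tap1 ends 495 bases before Psmb8 starts, on the same strand. Reads from stretches that several genes share may be counted for either gene or for neither of them. Of the 471 words of 30 bases in the last 500 bases of the longest protein-coding transcript, 43 of H2-K1 (9.13%) and 124 of H2-D1 (26.3%) also occurred in transcripts of other genes. All 43 of H2-K1 occurred in another H2 gene, 39 of them in H2-D1. Of the 124 of H2-D1, 55 occurred in another H2 gene and 69 in genes outside the H2 family alone, with Kcnk4 (58 words) the most frequent partner. The other 8 genes had 0 shared words, so the sharing bears on H2-K1 and H2-D1 alone among the 10.

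H2-K1 encodes a classical class I heavy chain, the part that holds the peptide. It was at 252, 326 and 461 CPM in CAF libraries 1, 2 and 3 and at 950, 560 and 554 CPM in normal libraries 1, 2 and 3. Every CAF library lay below every normal library. The means were 347 ± 106 CPM over CAF libraries and 688 ± 227 CPM over normal ones (SD, n = 3 each), a log2 fold change of -0.99 ± 0.39 (SE; 95% interval -1.89 to -0.09), or 1.98-fold lower (unadjusted p = 0.035, edgeR adjusted p = 0.279). The authors' deposited table gives a log2 fold change of -1.01 and an adjusted p of 0.142 for H2-K1.

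H2-D1 encodes the other classical class I heavy chain listed. It was at 281, 465 and 614 CPM in CAF libraries 1, 2 and 3, against 789, 643 and 1182 CPM in normal libraries 1, 2 and 3. Again no CAF library reached the lowest normal library, although CAF library 3 came close to normal library 2. The H2-D1 mean was 453 ± 167 CPM over CAF libraries, against 871 ± 278 CPM over normal ones (SD, n = 3 each), 1.92-fold lower (log2 fold change -0.94 ± 0.41 SE, 95% interval -1.90 to 0.02, edgeR adjusted p = 0.338). 2 of the 10 genes, H2-K1 and H2-D1, had all CAF libraries below all normal libraries, and 9.35% of all genes tested did. 0 of the 10 had all CAF libraries above all normal libraries, and 10.6% of all genes tested did. Their highest levels fell in different normal libraries, H2-K1 in library 1 and H2-D1 in library 3. In the library with the lowest gland share among the normal ones, normal library 3, H2-K1 was at 554 CPM and H2-D1 at 1182 CPM. With the gland genes taken out of the table, the log2 fold changes were -0.99 for H2-K1 and -0.95 for H2-D1 (edgeR adjusted p = 0.271 and 0.331). MHC RNA from gland cells themselves was not tested. Without normal libraries 1 and 2 the log2 fold changes were -0.61 for H2-K1 and -1.32 for H2-D1 (edgeR adjusted p = 0.58 and 0.481), with the lone normal library assumed to vary like the CAF libraries. Without normal library 1 alone, H2-K1 was at -0.71.

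B2m encodes beta-2 microglobulin, the light chain that every classical class I heavy chain needs to reach the surface. It was at 344, 553 and 715 CPM in CAF 1, 2 and 3, against 550, 676 and 825 CPM in normal 1, 2 and 3. These groups overlapped, and CAF library 1 was the one low value. The log2 fold change was -0.35 ± 0.38 (SE; 95% interval -1.22 to 0.53, edgeR adjusted p = 0.743), an interval that holds both no change and the fold of H2-K1. Within a library, counts of H2-K1 per count of B2m were 0.732, 0.590 and 0.645 in CAF libraries 1, 2 and 3 and 1.73, 0.828 and 0.671 in normal libraries 1, 2 and 3. Counts of H2-D1 per count of B2m were 0.817, 0.840 and 0.859 in CAF libraries and 1.43, 0.951 and 1.43 in normal libraries. Such ratios do not depend on how libraries are scaled. The H2-D1 ratio was nearly the same in the 3 CAF libraries (0.839 ± 0.0211) and more spread in the normal ones (1.27 ± 0.278; SD, n = 3 each), with no overlap, and the H2-K1 ratios overlapped.

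**Figure D1:**
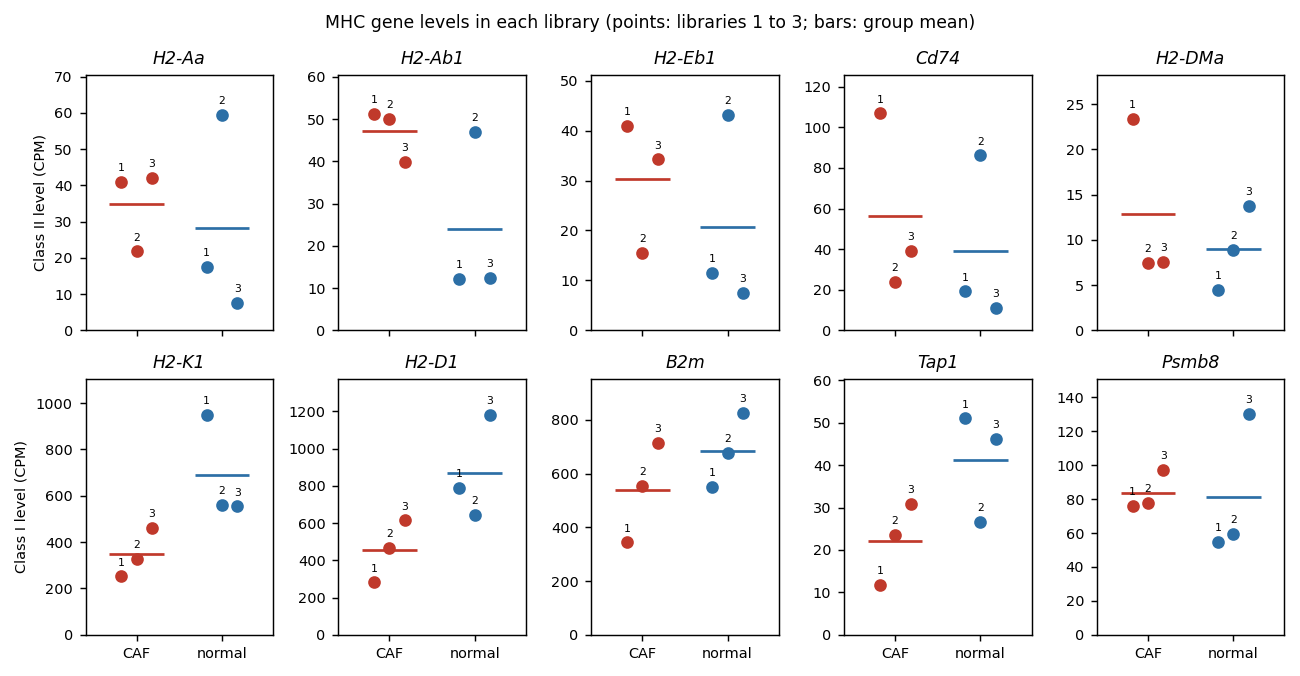
Levels (CPM, linear axis from 0) of the 10 MHC genes in CAF and normal libraries, with class II genes in the top row and class I genes below. Points are libraries, numbered 1 to 3 within the group, and bars are group means. The CAF points of H2-K1 (252 to 461 CPM) and H2-D1 (281 to 614 CPM) lie below all normal points, and for the class II genes CAF library 1 and normal library 2 are mostly the high points.

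Tap1 encodes a subunit of the TAP peptide transporter. It was at 11.7, 23.5 and 30.8 CPM in CAF libraries 1, 2 and 3 and 51.0, 26.6 and 46.3 CPM in normal libraries 1, 2 and 3, from 8, 170 and 228 counts in CAF and 125, 21 and 37 counts in normal libraries. Only CAF library 3 reached into the normal range. Tap1 was 1.82-fold lower (log2 fold change -0.87 ± 0.44 SE, edgeR adjusted p = 0.424). Tap2, its partner subunit, was 1.79-fold lower (adjusted p = 0.451). Psmb9, the immunoproteasome subunit whose promoter window overlaps that of Tap1, was at 10.2, 19.5 and 22.05 CPM in CAF and 39.2, 22.8 and 50.0 CPM in normal libraries, so that all CAF libraries were below all normal ones (log2 fold change -1.06 ± 0.44 SE, edgeR adjusted p = 0.305). Tap1 and Psmb9 kept close to one ratio, with 1.14, 1.21 and 1.40 counts of Tap1 per count of Psmb9 in CAF and 1.30, 1.17 and 0.925 in normal libraries.

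Psmb8 encodes an immunoproteasome subunit that takes the place of Psmb5 in the proteasome when interferon is present. It was at 76.1, 77.6 and 97.4 CPM in CAF 1, 2 and 3, against 54.7, 59.5 and 130 CPM in normal 1, 2 and 3. The CAF values lay inside the normal range, and the normal libraries spread more widely. The log2 fold change of 0.05 ± 0.40 (SE; 95% interval -0.88 to 0.98, edgeR adjusted p = 0.972) leaves a change of nearly 2-fold in either direction possible. Counts of Psmb8 per count of Psmb5 were 0.444, 0.602 and 1.06 in CAF and 0.295, 0.603 and 1.14 in normal libraries. The 3 immunoproteasome subunits Psmb8, Psmb9 and Psmb10 together gave 0.239, 0.337 and 0.458 counts per count of Psmb5, Psmb6 and Psmb7 in CAF libraries, against 0.300, 0.337 and 0.699 in normal libraries. The mix of proteasome subunits thus varied by more within each group than between their means.

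H2-Aa and H2-Ab1 encode the alpha and beta chains of the class II molecule I-A. H2-Aa was at 41.0, 21.8 and 42.1 CPM in CAF libraries 1, 2 and 3 and at 17.5, 59.5 and 7.50 CPM in normal libraries 1, 2 and 3. Normal library 2 was the highest of all 6 libraries and normal library 3 the lowest. The H2-Aa log2 fold change was 0.32 ± 0.69 (SE; edgeR adjusted p = 0.887). H2-Ab1 was at 51.2, 50.1 and 39.9 CPM in CAF and 12.2, 46.9 and 12.5 CPM in normal libraries. Normal libraries 1 and 3 lay well below all CAF libraries, and normal library 2 lay among them. The H2-Ab1 mean was 47.1 ± 6.23 CPM over CAF libraries and 23.9 ± 19.9 CPM over normal ones (SD, n = 3 each), 2.02-fold higher (log2 fold change 1.01 ± 0.56 SE, 95% interval -0.29 to 2.31, edgeR adjusted p = 0.463). Without normal library 2 its log2 fold change was 1.91 (adjusted p = 0.155).

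H2-Eb1 encodes the beta chain of the class II molecule I-E. It was at 41.0, 15.5 and 34.2 CPM in CAF libraries and 11.4, 43.1 and 7.50 CPM in normal libraries. As for H2-Aa, the CAF values lay within the range of the normal ones (log2 fold change 0.55 ± 0.70 SE, edgeR adjusted p = 0.778). Without normal library 2 the log2 fold change of H2-Eb1 was 1.59 (adjusted p = 0.292), and without normal library 3 it was 0.12 (adjusted p = 0.945). Counts of H2-Aa per count of H2-Eb1 were 1.0, 1.41 and 1.23 in CAF libraries and 1.54, 1.38 and 1.0 in normal libraries, a narrow range next to that of the levels themselves. Other class II ratios ranged more widely. Counts of H2-Aa per count of H2-Ab1 were 0.80, 0.435 and 1.05 in CAF and 1.43, 1.27 and 0.60 in normal libraries. Those of Cd74 per count of H2-Aa were 2.61, 1.09 and 0.926 in CAF and 1.09, 1.45 and 1.5 in normal libraries.

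Cd74 encodes the invariant chain, which blocks the class II groove until the molecule reaches the endosome. It was at 107, 23.9 and 39.0 CPM in CAF libraries 1, 2 and 3 and 19.2, 86.1 and 11.3 CPM in normal libraries 1, 2 and 3. CAF library 1 and normal library 2 stood above the others in their groups. The log2 fold change was 0.52 ± 0.84 (SE; edgeR adjusted p = 0.836), -0.26 without CAF library 1 and 1.79 without normal library 2. H2-DMa, a chain of the H2-DM catalyst that swaps the invariant-chain remnant for antigen peptide, was at 23.4, 7.45 and 7.57 CPM in CAF and 4.49, 8.87 and 13.8 CPM in normal libraries, from 54 or 56 counts in CAF libraries 2 and 3 and 7 to 16 in the rest. Its high libraries were CAF library 1 and normal library 3, and normal library 3 was not high for the other class II genes (log2 fold change 0.44 ± 0.69 SE, edgeR adjusted p = 0.832). The fold changes of all 5 class II genes were positive (median 0.52) and those of 4 of the 5 class I genes negative (median -0.87), where 46.1% of all genes tested had a negative one and the median was 0.06. Genes measured in the same libraries are not separate observations.

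**Figure D2:**
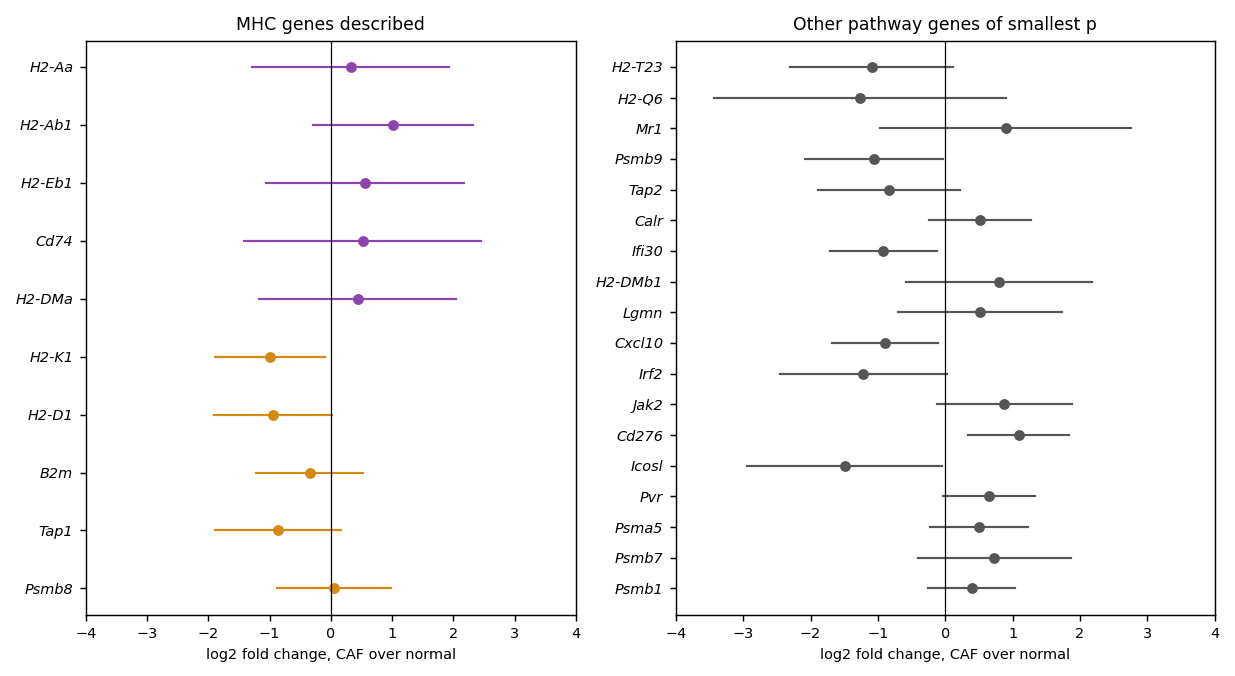
Log2 fold changes of CAF over normal with 95% intervals from the edgeR fit, for the 10 MHC genes (left, class II in purple and class I in orange) and for the 18 pathway genes of smallest p in their lists (right). Among the 10, only the interval of H2-K1 (-1.89 to -0.09) stays on one side of 0, and no gene shown passed adjustment over all genes.

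The 3 class II chains and Cd74 together took 0.0254% of the counts in CAF library 1 (exact binomial 95% interval 0.0217% to 0.0297%), 0.0125% in CAF library 2 and 0.0179% in CAF library 3. In normal libraries 1, 2 and 3 they took 0.00454%, 0.0206% (0.0177% to 0.0238%) and 0.00403%. These intervals cover counting error only, and the differences between libraries of one group were far wider. The class II sum was 240, 111 and 155 CPM in CAF 1, 2 and 3, against 60.4, 236 and 38.8 CPM in normal 1, 2 and 3. Per count of H2-K1, H2-D1 and B2m it gave 0.274, 0.0827 and 0.0866 counts in CAF and 0.0264, 0.125 and 0.0151 counts in normal libraries, and this ratio overlapped between groups because of normal library 2.

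Leukocyte RNA moved with part of this pattern. Pan-leukocyte markers, with 6 of 7 in the table, summed to 126, 93.7 and 41.0 CPM in CAF 1, 2 and 3, against 11.8, 88.7 and 26.3 CPM in normal 1, 2 and 3. Ptprc, which encodes CD45 itself, had 0, 40 and 10 counts in CAF libraries and 0, 3 and 0 counts in normal libraries. Macrophage and monocyte markers, 12 of 13, summed to 68.8, 195 and 162 CPM in CAF and 77.5, 407 and 42.5 CPM in normal libraries. Normal library 2, where class II was high, had the highest macrophage sum of the 6, with C1qa, a complement gene of tissue macrophages, at 60.8 CPM and Csf1r, the macrophage growth factor receptor, at 13.9 CPM. CAF library 1, where class II was also high, had a low macrophage sum, with C1qa at 2.93 CPM from 2 counts, Csf1r at 4.39 CPM from 3 counts and the macrophage receptor gene Adgre1 at 0. CAF library 2 was near it in C1qa (2.48 CPM) and Csf1r (4.28 CPM). The higher sum of CAF library 2 was mostly the lysozyme gene Lyz2, at 128 CPM there and 11.7 CPM in CAF library 1. Counts of Cd74 per count of the 3 C1q genes were 14.6, 5.97 and 0.926 in CAF libraries and 0.825, 0.701 and 1.13 in normal libraries. The ratio was thus close to 1 in the normal libraries and in CAF library 3 and higher in CAF libraries 1 and 2. It rested on few C1q counts in some libraries. C1qa, C1qb and C1qc had 2, 3 and 0 counts in CAF library 1, 18, 3 and 8 in CAF library 2, and 3, 3 and 2 in normal library 3.

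Dendritic cell markers, 4 of 9, summed to 49.7, 20.4 and 26.4 CPM in CAF 1, 2 and 3, against 5.30, 20.3 and 10.0 CPM in normal 1, 2 and 3. Batf3, a transcription factor of cross-presenting dendritic cells, was at 43.9, 16.8 and 14.6 CPM in CAF and 4.08, 1.27 and 7.50 CPM in normal libraries, without overlap (5.58-fold higher, edgeR adjusted p = 0.139). Ccr7, the homing receptor of migrating dendritic cells, had 3, 5 and 8 counts in CAF (4.39, 0.690 and 1.08 CPM) and 0 in all normal libraries. In normal libraries 2 and 3, 1 count is 1.27 and 1.25 CPM, above the Ccr7 levels of CAF libraries 2 and 3, so 0 counts there cannot show a lower level. Zbtb46 and Clec10a, also listed, overlapped between the groups. Zbtb46 was at 1.46, 2.90 and 4.46 CPM in CAF and 1.22, 3.80 and 2.50 CPM in normal libraries. Clec10a was at 0, 0 and 6.22 CPM in CAF and 0, 15.2 and 0 CPM in normal libraries. Batf3 made up most of the dendritic sum in every library except normal library 2, where Clec10a made up most of it. DESeq2 called 1 of the listed dendritic markers higher and edgeR 0, where they called 400 and 91 higher over all genes. The dendritic cell marker Itgax and the T cell marker Cd3e were not analysed here. Of B cell markers 2 of 7 were in the table, summing to 19.0, 3.59 and 2.84 CPM in CAF and 3.26, 2.53 and 2.50 CPM in normal libraries, and of T and NK cell markers 2 of 8, at 0, 2.21 and 2.71 CPM in CAF and 0 in all normal libraries. Neutrophil markers, 6 of 6, summed to 71.7, 1586 and 256 CPM in CAF and 18.4, 616 and 83.8 CPM in normal libraries. CAF library 1 had the lowest sum of the CAF libraries but lay above normal library 1. S100a8, S100a9, Ly6g and Retnlg were lowest there among CAF libraries. Cxcr2 (8.78 CPM from 6 counts) and Csf3r (5.85 CPM from 4 counts) were highest there among all libraries. Blood endothelial markers, 6 of 7, summed to 34.2 to 54.1 CPM in CAF and 36.7 to 52.6 CPM in normal libraries. Mesothelial markers, 6 of 8, summed to 168, 199 and 243 CPM in CAF and 989, 446 and 471 CPM in normal libraries, a sum made up mostly of the keratin Krt19, which epithelia also express. The other 5 mesothelial genes had higher means in CAF. Msln (mesothelin) was at 5.85 to 9.87 CPM in CAF and 0 to 1.27 CPM in normal libraries, Wt1 at 0 to 60.2 CPM in CAF and 0 to 7.60 CPM in normal libraries, and Upk1b at 4.39 to 19.9 CPM in CAF and 2.04 to 5.00 CPM in normal libraries. Upk3b and Lrrn4 were at 0.276 to 1.66 CPM in CAF and 0 to 0.408 CPM in normal libraries. The part of leukocytes and mesothelial cells in the class II levels was not tested.

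**Figure D3:**
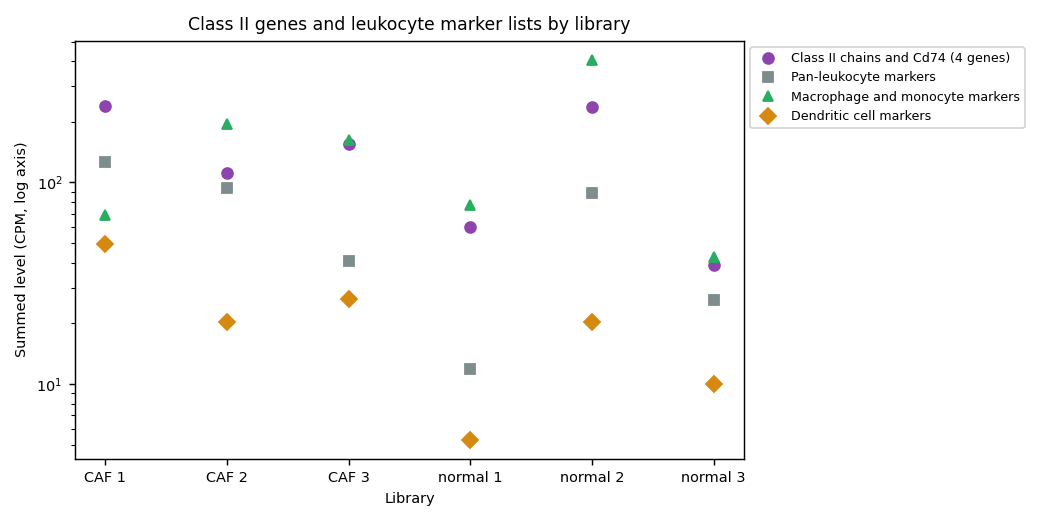
Summed levels (CPM, log axis) of the class II chains with Cd74 and of 3 leukocyte marker lists in each library, with CAF libraries on the left. In normal library 2 the class II sum (236 CPM) and the macrophage sum (407 CPM) are both the highest of their group, and in CAF library 1 the class II sum is 240 CPM and the macrophage sum 68.8 CPM.

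The wider pathway was counted from 6 lists, of which 85 of 102 genes were in the table and 71 were tested. By edgeR 0 of the 71 were called, with 1 higher and 5 lower at an unadjusted p under 0.05, where 7.37% and 7.97% of all genes tested lay. DESeq2 called 1 of the listed genes and limma-voom 0, where they called 935 and 65 over all genes. The DESeq2 call was Vtcn1, an inhibitory ligand of the B7 family, named here after its values were seen. It had 2, 102 and 125 counts in CAF 1, 2 and 3, against 0, 1 and 0 in normal 1, 2 and 3, a pooled rate ratio of 60.4 (95% counting interval 10.7 to 2395), and it did not pass the filter of the edgeR test.

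Among 8 tested class I heavy and light chains, 6 had a negative fold change, with a list median of -0.81 against 0.06 for all genes tested. H2-T23, which encodes the nonclassical molecule Qa-1 that presents leader peptides to NK cell receptors, was at 102, 91.4 and 113 CPM in CAF and 167, 91.2 and 399 CPM in normal libraries (log2 fold change -1.10 ± 0.52 SE, edgeR adjusted p = 0.384). The high value was that of normal library 3, and normal library 2 lay with the CAF libraries. H2-Q6, a class I gene with 268 of 471 such 3′ words (56.9%) in other genes and thus an uncertain count, was 2.40-fold lower (adjusted p = 0.603), and Mr1, which presents microbial metabolites, was 1.86-fold higher (adjusted p = 0.685). The 13 genes of peptide supply and loading had a median of -0.04, with 6 higher and 7 lower. Calr, the chaperone calreticulin of the loading complex, was 1.43-fold higher (edgeR adjusted p = 0.531). The class I regulator Nlrc5 was at 1.46, 1.52 and 2.43 CPM in CAF and 2.45, 3.80 and 1.25 CPM in normal libraries. These levels came from 1, 11 and 18 counts in CAF and 6, 3 and 1 counts in normal libraries, too few to pass the filter. The class II regulator Ciita was not analysed here.

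Among 11 tested genes of class II chains, loading and processing the median was 0.44, with 8 higher and 3 lower. Ifi30, the lysosomal thiol reductase that unfolds antigens, was at 86.3, 109 and 143 CPM in CAF and 282, 190 and 171 CPM in normal libraries, so that it lay lower in all CAF libraries, the other way from the chains (log2 fold change -0.92 ± 0.34 SE, edgeR adjusted p = 0.254). H2-DMb1, the partner chain of H2-DMa, was 1.73-fold higher (adjusted p = 0.609), and Lgmn, an endosomal protease, was 1.43-fold higher (adjusted p = 0.721).

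The list of the interferon gamma receptor, its factors and targets had a median of -0.19 over 17 genes, with 5 higher and 12 lower. Cxcl10, a chemokine that draws T cells, was at 80.5, 66.9 and 85.9 CPM in CAF and 153, 185 and 95.05 CPM in normal libraries. All CAF libraries lay below all normal ones, and Cxcl10 did not pass (log2 fold change -0.89 ± 0.34 SE, edgeR adjusted p = 0.258), except without normal library 3 (-1.18, adjusted p = 0.0352). Irf2, a factor that binds interferon response elements, was 2.32-fold lower (adjusted p = 0.336) and Jak2, a kinase of the interferon gamma receptor, 1.83-fold higher (adjusted p = 0.399). Irf2 was at 21.9, 24.4 and 19.6 CPM in CAF and 39.2, 21.5 and 93.8 CPM in normal libraries, with the high value in normal library 3 as for H2-T23 and H2-D1.

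Of 8 tested costimulatory and coinhibitory genes 6 were higher and 2 lower, with a median of 0.39. Cd276, which encodes the B7-H3 ligand, was at 45.4, 48.9 and 57.2 CPM in CAF and 23.7, 19.0 and 28.8 CPM in normal libraries. It was 2.13-fold higher with no overlap (log2 fold change 1.09 ± 0.32 SE, edgeR adjusted p = 0.151). Icosl, the ligand of the costimulatory receptor ICOS, was at 14.6, 17.5 and 16.5 CPM in CAF and 21.6, 22.8 and 96.3 CPM in normal libraries, without overlap (log2 fold change -1.49, edgeR adjusted p = 0.308). Pvr, a ligand of NK and T cell receptors, was 1.56-fold higher (adjusted p = 0.361). The 14 constitutive proteasome core genes had a median of 0.20, with 10 higher and 4 lower. Psmb7, Psma5 and Psmb1, core subunits of smallest p, had log2 fold changes of 0.73, 0.50 and 0.39 (edgeR adjusted p = 0.564, 0.534 and 0.59).

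**Figure D4:**
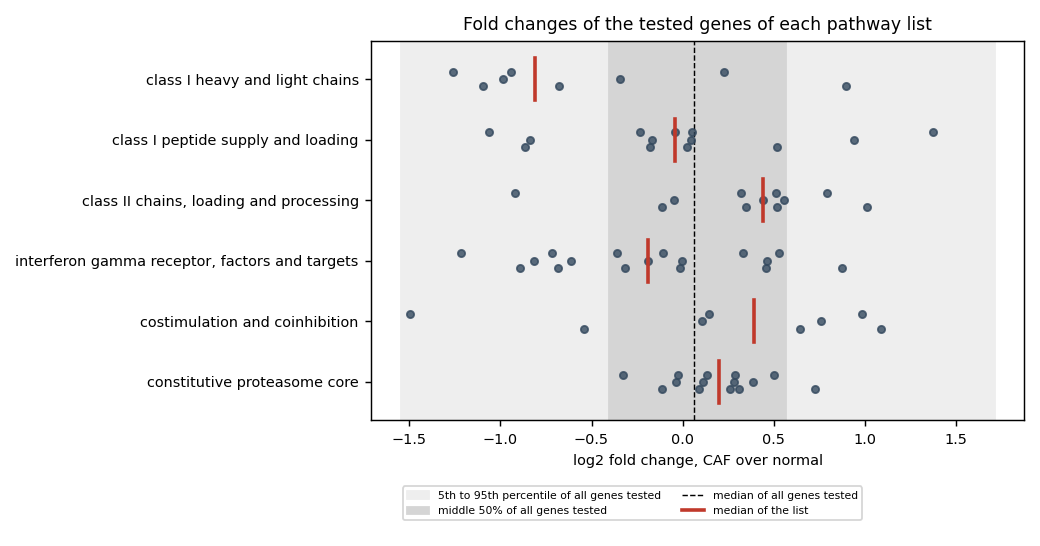
Log2 fold changes of CAF over normal for the tested genes of 6 pathway lists, each point a gene and each red bar the list median, against the middle 50% and the central range of all genes tested in grey. The median is lowest for class I heavy and light chains (-0.81) and highest for class II chains, loading and processing (0.44).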

How the data were processed

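RNA 3′ ends were measured by MARS-seq in 6 libraries, 3 CAF and 3 normal. The tools named in the submitters' processing notes are STAR, HTSeq, cutadapt and DESeq2, with no versions, and the build is mm10. The annotation, the use of molecular identifiers and of strand, and the H2 haplotype of the mice, on which the mapping of polymorphic H2 reads depends, are stated nowhere in these sources. Raw counts per gene, as deposited by the authors, were the values tested. The authors' normalized signal per the file headers equals the raw count divided by 1 factor per library, and their regularized log2 values were not used. The authors' deposited log2 fold changes and p-values are quoted where named.

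Tests were run in edgeR 4.0.16 (R 4.3.3): filterByExpr defaults, scaling by trimmed mean of M-values, quasi-likelihood F test on group alone, Benjamini-Hochberg adjustment over 10148 genes and a threshold of 0.05. SEs were derived from the fold change and F, and their intervals (95%) are approximate. Alternatives were DESeq2 1.42.0, limma-voom (limma 3.58.1), other scalings and filters, gland genes removed, libraries left out and mouse number as a covariate. The code was tested on simulated data. Total counts were 644522, 6422568 and 6421010 in CAF 1, 2 and 3, against 3259644, 903176 and 768420 in normal 1, 2 and 3, so that 1 count is 1.46 CPM in CAF library 1 and 0.135 CPM in CAF library 3. Genes named are the 10, up to 3 others of smallest p per list, fixed markers, Ciita, Nlrc5, Psmb5, and the 5 genes most like Cd74 and H2-K1 over the libraries. Genes and lists were chosen with earlier results of these data known. The labels name different mice for each library.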

Additional observations from a re-analysis of the deposited data

How the results depend on the processing

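None of the 10 MHC genes was called under any of the 15 alternatives. Of 150 recomputed fold changes of these genes 141 kept their direction and 9 reversed. In all 15 the fold changes of H2-K1 (log2 -1.23 to -0.61), H2-D1 (-1.32 to -0.69), B2m (-0.61 to -0.11) and Tap1 (-1.19 to -0.62) were negative. Those of H2-Ab1 (0.62 to 1.96) and H2-Eb1 (0.12 to 2.02) were positive in all 15. With 1 library left out, the log2 fold change ranged from -0.17 to 1.38 for H2-Aa, from 0.62 to 1.91 for H2-Ab1 and from 0.12 to 1.59 for H2-Eb1. It ranged from -0.26 to 1.79 for Cd74, from -0.18 to 0.81 for H2-DMa and from -0.19 to 0.49 for Psmb8. Without normal libraries 1 and 2, H2-DMa was at -0.21 and Psmb8 at -0.57, and with mouse number as a covariate Psmb8 was at -0.10. The class II median was 0.12 to 1.59 with 1 library left out and 2.02 without normal libraries 1 and 2, and the class I median was -1.15 to -0.62 with 1 library left out. Without those 2 libraries the median of all genes was 0.29. Over all genes, 112 calls became 935 with DESeq2 (400 higher, 535 lower), 65 with limma-voom (49 higher, 16 lower), 0 to 1193 with 1 library left out and 0 without normal libraries 1 and 2. Pathway calls were 0, against 1 with DESeq2 and 0 to 1 with 1 library left out. The higher share of calls was 91 of 112 with the main scaling and 80 of 95 with upper-quartile factors. The cause of these shifts was not tested. No paired analysis was possible because the labels give CAF and normal libraries no shared replicate numbers. Depth limits the class II genes: H2-Aa and H2-Eb1 had 6 counts each in normal library 3, and H2-DMa had 7 to 16 counts in 4 of the 6 libraries.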

Other observations

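The genes whose levels over the 6 libraries lay nearest to Cd74 were Mapre1, Ptn, Atp6v1a, Ccnt1 and Zfp553, with a root mean square difference of 0.47 to 0.64 between log2 levels centred on each gene's mean. Mapre1, a microtubule end-binding protein, was at 38.0, 18.5 and 19.7 CPM in CAF 1, 2 and 3, against 13.1, 29.1 and 7.50 CPM in normal 1, 2 and 3. The genes nearest to H2-K1 were Helz2, Fpgs, Paxx, Aplp2 and Coprs, at 0.16 to 0.19. Helz2, an interferon-inducible helicase, was at 19.0, 21.5 and 24.3 CPM in CAF and 56.7, 34.2 and 37.5 CPM in normal libraries, 1.98-fold lower (log2 -0.98 ± 0.35 SE, edgeR adjusted p = 0.229). All 5 neighbours of H2-K1 had CAF levels below all normal levels, which the choice by likeness fixes in part. These points share their libraries and the scaling of each library.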
